A study of Mus musculus with 2 samples.

Results

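Genes that mark successive steps of limb muscle formation were followed through 2 RNA libraries of mouse limb at embryonic day 13.5. They were picked by name, as a list of 10 among the 43346 Ensembl genes of the deposited tables. Pax3, Pax7, Lbx1 and Met belong to the migrating and dividing progenitors. Myf5, Myf6, Myod1 and Myog form the family of myogenic basic helix-loop-helix (bHLH) factors, Msc encodes a related bHLH repressor and Mymk encodes myomaker, a membrane protein of cell fusion. All 10 were found in both tables of each library, with 23 annotated transcripts between them.

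Limb muscle comes from the somites, blocks of mesoderm beside the neural tube. Progenitors that carry Pax3 leave the somite under the control of Met and its ligand Hgf, enter the limb bud, and there switch on the bHLH factors one after another. Myf5 and Myod1 commit a cell to the muscle lineage, Myog drives its differentiation, and myomaker then lets the myocytes fuse into fibres.

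The labels describe a single group, limb of B6NCrl embryos of mixed sex at day 13.5, and name no treatment, transgene or mutation. It holds biological replicates 1 and 2, which come from separate tissue entries but share a donor entry. Male and female embryos were pooled, and forelimb and hindlimb are not told apart. RNA above 200 nt, 10 ng per library, was sequenced with spike-ins. The depth was 31927045 expected counts in replicate 1 and 43194454 in replicate 2. With 1 group no condition can be compared and no p-value is given, and because nothing says which embryos went into each sample, the spread between the libraries may be partly technical. In whole tissue, fewer cells of a type and less RNA per cell cannot be told apart. Of 4 markers of limb mesenchyme all 4 were present (Msx1, Prrx1, Prrx2 and Twist2, 50.9 to 253 TPM), and of 4 heart muscle markers none was, with Nkx2-5 at 0 counts in both libraries.

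Myog, Myod1 and Mymk were the highest of the 10 genes, and Myf6, Lbx1, Pax3 and Pax7 were the lowest. TPM is the deposited level per unit of transcript length, scaled to the same total in each library, so that genes can be compared. At 1 TPM or more in both libraries stood 8 of the 10 genes, beside 34.6% of all Ensembl genes and 61.0% of protein-coding genes. The median of the 10 was 11.0 TPM, against 4.79 for protein-coding genes and 0.1 for all genes. The 2 genes under 1 TPM were Pax3 and Pax7.

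**Figure D1:**
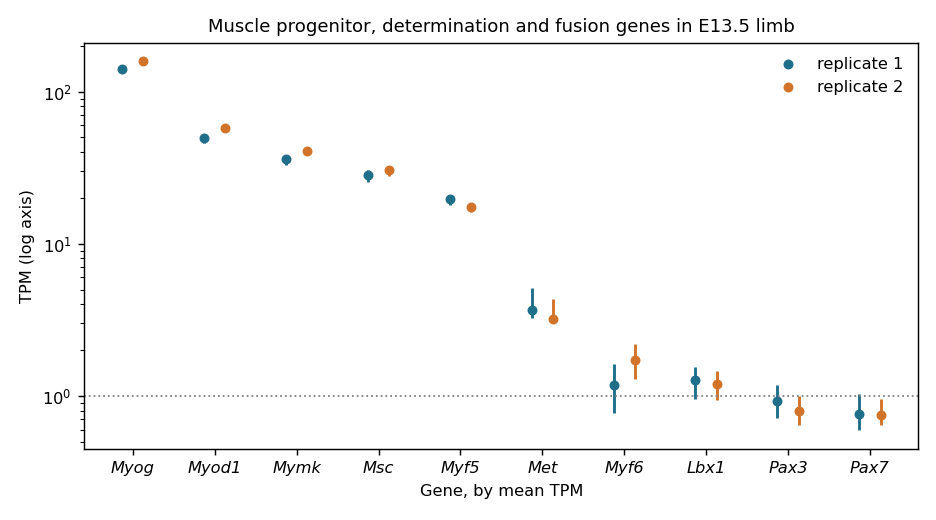
Level of each of the 10 genes in TPM on a log axis, with 1 point per library and, as bars, the deposited credibility interval of TPM. The dotted line is 1 TPM. The first 5 genes sit between 17.5 and 158 TPM, and the last 4 sit between 0.750 and 1.73.

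The 4 myogenic bHLH factors share a stretch of coding sequence from the helix-loop-helix region, through which these proteins pair with E proteins. It is shown because these related genes had levels that differed by up to 98.1-fold. It is the 60-base window, in frame, with the most bases in common. Capitals mark the 43 bases that are the same in all 4 genes. Sequences are from GENCODE release M21 (mm10), 5′ to 3′ on the coding strand.
Myod1: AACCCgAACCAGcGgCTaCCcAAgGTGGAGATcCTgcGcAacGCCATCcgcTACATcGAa
Myf5: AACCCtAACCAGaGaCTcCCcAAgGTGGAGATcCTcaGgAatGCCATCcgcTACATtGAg
Myf6: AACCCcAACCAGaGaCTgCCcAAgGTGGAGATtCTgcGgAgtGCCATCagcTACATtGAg
Myog: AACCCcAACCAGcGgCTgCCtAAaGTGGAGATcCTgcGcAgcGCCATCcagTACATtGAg

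The windows begin at coding base 415 in Myod1 (chr7:46377087-46377146, plus strand), 337 in Myf5 (chr10:107485536-107485595, minus strand), 367 in Myf6 (chr10:107494279-107494338, minus strand) and 331 in Myog (chr1:134290386-134290445, plus strand), each inside 1 coding exon. Myf5 and Myf6 were the most alike pair, with 53 of 60 bases the same, and Myf5 and Myog the least alike, with 47. The coding sequences run to 318 codons in Myod1, 255 in Myf5, 242 in Myf6 and 224 in Myog.

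Myog was the highest of the 10 genes. Myog (chromosome 1, 134289989 to 134292548, mm10, plus strand) stood at 142 TPM in replicate 1 and 158 TPM in replicate 2, from 4118 and 6099 expected counts. Its deposited credibility intervals ran from 134 to 142 TPM and from 151 to 159 TPM, so they did not touch. The mean of 150 TPM ± 11.5 (SD, n = 2) was above that of 95.2% of protein-coding genes.

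Myod1 (chromosome 7, 46376474 to 46379099, plus strand) came next. It reached 49.3 TPM in replicate 1 and 58.0 TPM in replicate 2, with intervals of 45.8 to 50.2 and 54.7 to 58.9. Replicate 2 was again the higher library, and the mean was 53.7 TPM ± 6.17 (SD, n = 2). Myog exceeded Myod1 by 2.79-fold in the mean of the 2 libraries.

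Myf5, the earliest of the family to be switched on in the embryo, was lower than both and was higher in replicate 1. Its level was 19.7 TPM in replicate 1 and 17.5 TPM in replicate 2 (mean 18.6 ± 1.57, SD, n = 2). Myf6, also called MRF4, a factor of later fibre maturation, had 28 expected counts in replicate 1 and 55 in replicate 2. These gave 1.17 and 1.73 TPM, with intervals of 0.771 to 1.62 and 1.29 to 2.19, which overlap, and a mean of 1.45 ± 0.396 (SD, n = 2).

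Myf5 (chromosome 10, 107482908 to 107486134) and Myf6 (107492853 to 107494737) are neighbours on the minus strand with 6718 bases between them. Myf5 was 12.3-fold above Myf6, by 3.97 on the log2 scale in replicate 1 and 3.27 in replicate 2. Both ratios were well past the limit of 0.72 set by genes of like count.

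Within the summed TPM of the 4 factors, 212 in replicate 1 and 235 in replicate 2, Myog made up the greater part in both libraries. Its share was 66.8% and 67.1%, that of Myod1 23.3% and 24.7%, Myf5 9.32% and 7.45%, and Myf6 0.552% and 0.736%. Myf5 and Myf6 thus moved most in relative terms, in opposite directions. In scaled counts both stayed within the limit set by genes of like count. The log2 ratio of replicate 2 over replicate 1 was -0.19 for Myf5 (limit 0.26) and 0.54 for Myf6 (limit 0.98). The mean share of Myog was 67.0% ± 0.206 (SD, n = 2).

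The bases before the start of Myog and Myf5 are shown because these 2 family members differ in the motif matches they hold there. Promoters of 300 bases (250 before the start and 50 after, RefSeq, GRCm38.p6) were matched for 4 of the 10 genes, Met, Myf5, Myog and Pax7. Only the part ahead of the annotated transcript is printed. Capitals mark CANNTG (the E-box bound by bHLH factors) and a loose pattern modelled on the Mef2 site, both searched on both strands. The loose pattern is CTA, any 4 bases, then TA and any base, a form widened after the sequences were seen. Because it takes any 4 middle bases, a match need not be a Mef2 site.
Myog: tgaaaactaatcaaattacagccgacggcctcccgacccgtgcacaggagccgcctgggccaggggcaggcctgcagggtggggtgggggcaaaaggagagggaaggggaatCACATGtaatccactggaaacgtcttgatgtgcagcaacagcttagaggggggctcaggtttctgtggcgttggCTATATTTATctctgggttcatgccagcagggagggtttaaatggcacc
Myf5: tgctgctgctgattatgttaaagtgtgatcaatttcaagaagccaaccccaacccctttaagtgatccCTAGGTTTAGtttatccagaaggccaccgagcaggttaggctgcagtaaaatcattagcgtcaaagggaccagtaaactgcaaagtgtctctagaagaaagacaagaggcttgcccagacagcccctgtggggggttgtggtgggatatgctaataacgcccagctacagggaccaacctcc

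These are chr1:134289754-134289988 on the plus strand and chr10:107486135-107486384 on the minus strand. The Myog stretch holds CACATG 138 bases and CTATATTTAT 64 bases ahead of the RefSeq start. A second E-box, CAGTTG, lies 12 bases ahead of it, inside the annotated transcript. Myf5 had no CANNTG in the whole 300-base window and 1 match to the loose pattern, CTAGGTTTAG. Its middle bases are GGTT, where those of the Myog match are TATT. Met had 2 sites of CANNTG and Pax7 none of these motifs. Over 32851 promoters of this length CANNTG occurred in 72.3%, the loose pattern in 21% and its narrower form that ends in TAG in 3.69%. CAGCTG, an E-box form, occurred in 16.3% of promoters and in none of these 4. The motif matches describe these letters and were not tied to any measured level.

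Mymk (chromosome 2, 27061636 to 27072179, minus strand), which acts in fusing muscle cells, came after Myod1 in the order. It stood at 35.9 TPM in replicate 1 and 40.8 TPM in replicate 2 (mean 38.4 ± 3.46, SD, n = 2). Myog exceeded it by 3.90-fold, with log2 ratios of 1.98 and 1.95 that hardly differed between libraries. Mymx, its small partner in fusion, was at 19.8 TPM in both.

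Msc (chromosome 1, 14753346 to 14755992, minus strand) encodes musculin, a bHLH protein that can repress E-box genes. It reached 28.5 TPM in replicate 1 and 30.3 TPM in replicate 2, with overlapping intervals of 25.6 to 30.3 and 27.8 to 32.1 and a mean of 29.4 ± 1.32 (SD, n = 2). In TPM it lay 1.58-fold above Myf5 (log2 0.66). Without division by length, in expected counts, the log2 ratio was 0.10 and lay within the spread. Gm9947, annotated on the opposite strand across the whole of Msc, shares 539 exon bases with it and had 9.89 and 14.28 expected counts (0.360 and 0.280 TPM). Whether strand was used in counting is not given here, so reads of this pair may have been assigned to either gene.

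Met, the receptor for Hgf (chromosome 6, 17463800 to 17573980, plus strand), was the highest of the 4 progenitor genes. It stood at 3.64 TPM in replicate 1 and 3.22 TPM in replicate 2, from 411 and 536 expected counts. The libraries' intervals overlapped, and the mean was 3.43 TPM ± 0.297 (SD, n = 2). Hgf was at 2.40 and 2.73 TPM. Limb epithelium can also hold Met, and its markers Krt14, Krt5, Epcam, Cdh1 and Cldn6 were all present (5 of 5, summed level 458.5 TPM in replicate 1 and 524.69 in replicate 2). Their part in the level of Met was not tested.

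Lbx1, a homeobox gene of progenitors that migrate to the limb (chromosome 19, 45232684 to 45235812, minus strand), rested on 63 and 79 expected counts. These gave 1.27 TPM in replicate 1 and 1.20 TPM in replicate 2 (mean 1.24 ± 0.0495, SD, n = 2). Lbx1 is also a gene of dorsal spinal cord neurons. Of 8 neuron and spinal cord markers 2 reached 1 TPM, the axonal transcripts Stmn2 and Tubb3, while Olig2, Pax2, Lhx1, Sox1, Elavl3 and Chat were at 0.14 TPM or less in each library and Sox1 had 0 counts. The part of such neurons in the level of Lbx1 was not tested.

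Pax3 and Pax7, paired-box factors of the progenitor pool, closed the order. Pax3 (chromosome 1, 78101267 to 78197134, minus strand) was at 0.920 TPM in replicate 1 and 0.800 TPM in replicate 2, with 66 and 78 expected counts. Pax7 (chromosome 4, 139737062 to 139833528, minus strand) was at 0.760 and 0.750 TPM, with 82 and 120 expected counts. Their means were 0.860 ± 0.0849 and 0.755 ± 0.00707 (SD, n = 2). The upper ends of the intervals, between 0.955 and 1.18 TPM, lie close to the limit for presence. Rescaled over protein-coding genes alone, Pax3 would stand at 1.04 TPM and Pax7 at 0.910.

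Neural crest derivatives also use Pax3. In the limb these are Schwann cell precursors and melanoblasts. Of 7 Schwann precursor markers 6 reached 1 TPM in both libraries (summed level 61.04 TPM in replicate 1 and 68.45 in replicate 2), among them Sox10 at 4.63 and 5.14 TPM, and the seventh, Foxd3, was at 0.670 and 0.620 TPM. Of 5 melanoblast markers 3 did so (summed level 12.09 and 13.29 TPM), with Dct at 1.22 and 0.990 TPM and Tyrp1 at 0.220 and 0.170 TPM. Kit, at 7.66 and 8.56 TPM, made up most of that sum. Among protein-coding genes 61.0% reached 1 TPM in both libraries, and 3 of 5 is near that share. Their part in the level of Pax3 was not tested. Of 4 early somite markers only Tcf15 reached 1 TPM, at 7.30 and 6.32, while Tbx6, Mesp2 and Uncx were between 0.0800 and 0.530.

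The order by mean TPM was Myog, Myod1, Mymk, Msc, Myf5, Met, Myf6, Lbx1, Pax3, Pax7. Neighbours were called apart when the ratio had 1 sign in both libraries and its mean log2 value was over 2 times the replicate SD of the 500 genes nearest in count, combined for the pair. By this rule 6 of 9 neighbouring pairs lay apart. The limit covers only the spread of a gene between the libraries, not errors of length or read assignment that both libraries share. The order came from these same TPM values, and the share of other gene pairs that lie apart was not computed. Those were all pairs from Myog down to Myf6, the closest of them being Mymk over Msc, at 1.30-fold, against a limit of 0.24 in log2 units for a ratio of 0.38.

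Among the lowest 4 genes no neighbouring pair lay apart. Myf6 over Lbx1 was -0.11 in replicate 1 and 0.49 in replicate 2 on the log2 scale, so the libraries gave opposite orders. Lbx1 over Pax3 was 0.43 and 0.53, both positive but within the limit of 0.70. Lbx1 over Pax7 was 0.64 (limit 0.70), and Pax3 over Pax7 was 0.16, so neither was past its limit. Met over Lbx1 was 1.40 and lay apart, and in all 8 of the 11 pairs set out by role did so. Some of these 11 were also neighbouring pairs, and here too no share over other gene pairs was computed.

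Between the libraries, 6 genes were higher in replicate 2 and 4 in replicate 1, after TMM scaling of the expected counts, beside 8682 higher and 8724 lower of the 17406 genes with 10 or more counts in both. Pax7 was among the 6 at a log2 ratio of 0.12, but in TPM its ratio was -0.0169. Of the 10 genes 1 differed by more than 2 SD of genes of like count, where 4.3% of those 17406 genes did so. That gene was Myod1, with a log2 ratio of replicate 2 over replicate 1 of 0.21 against a limit of 0.20, or 1.16-fold. Myog (0.14), Mymk (0.16) and Msc (0.09) also lay higher in replicate 2, and Myf5 (-0.19), Pax3 (-0.19), Lbx1 (-0.10) and Met (-0.05) lower, all within their limits. Myf6 had the widest ratio, 0.54, but at its count the limit was 0.98. A share of 1 in 10 rests on a single gene just past its limit. In some of the 8 marker lists genes also lay past their limits and higher in replicate 2. These were 2 of 7 for Schwann precursors, 1 of 5 for epithelium and 1 of 4 for limb mesenchyme. Melanoblast, neuron, early somite and smooth muscle markers had 0 past the limit, and no heart muscle marker had 10 counts in both. Of the neuron markers with 10 or more counts 0 lay higher and 3 lower, and of the early somite markers 0 and 2. The part of these cells in the Myod1 difference was not tested.

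**Figure D2:**
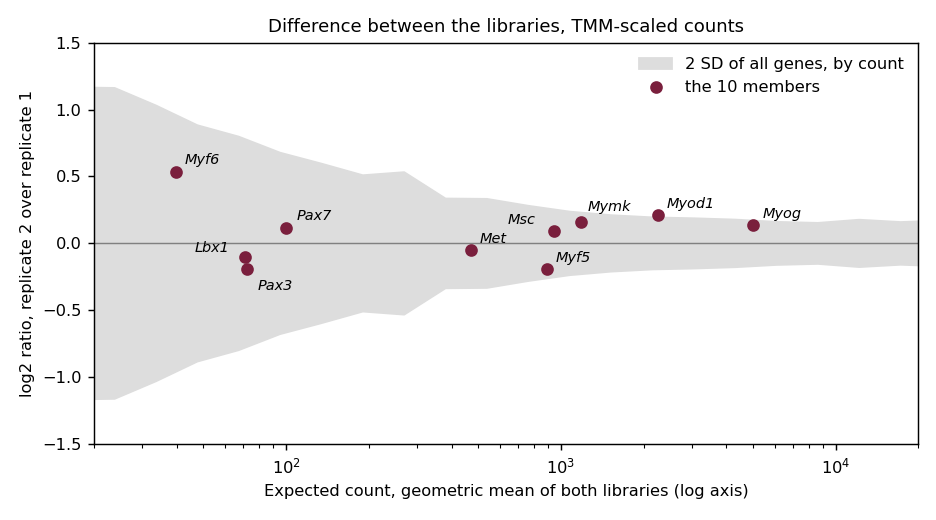
Log2 ratio of replicate 2 over replicate 1 for each of the 10 genes (points), against the expected count on a log axis. The grey band is 2 SD of the ratio over all genes, in bins of count. Myod1, at 0.21, lies just outside the band and the other 9 genes lie inside it.

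A single transcript is annotated for Lbx1, Myf5, Myf6, Myod1 and Myog, and it carried all of their counts. The other 5 genes have 2 to 7 transcripts each, and IsoPct, the deposited percent of a gene's TPM held by a transcript, gives their shares. The leading transcript was the same in both libraries for 5 of these 5 genes, as it was for 89.2% of the 11299 genes with more than 1 transcript and 10 or more counts in both. It held 90% or more in both libraries for 1 of the 5, Mymk, beside 20.6% of those genes. In replicate 2 alone 2 of the 5 did so, since Pax7-201 held 100% there.

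**Figure D3:**
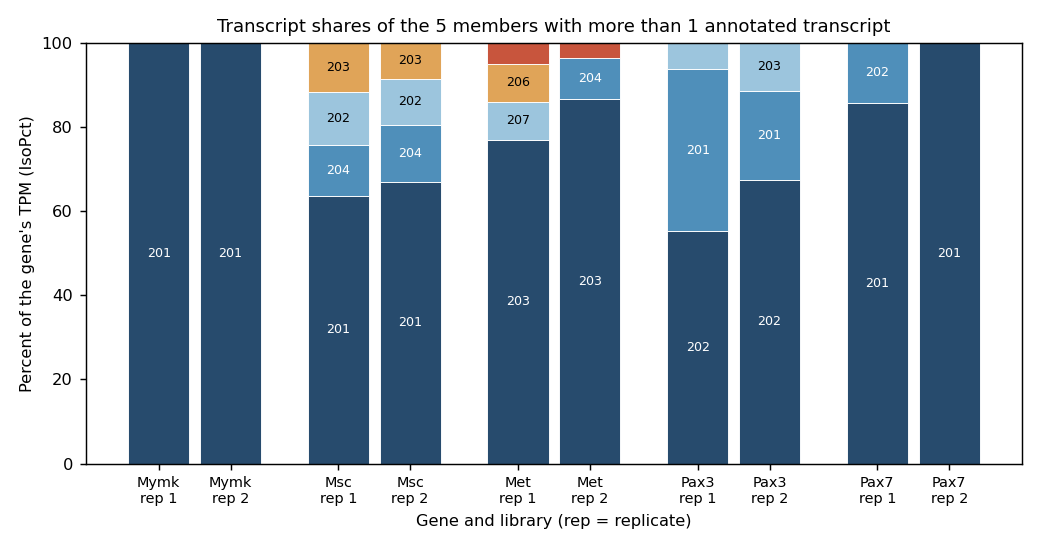
Percent of each gene's TPM by transcript in each library, for the 5 genes with more than 1 annotated transcript. Numbers are transcript suffixes (201 in the Mymk bars is Mymk-201), shades run from the highest mean share at the bottom and are not shared between genes. Mymk is a single block in both libraries, and Msc shows the same 4 blocks in both.

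Mymk used 1 of its 2 forms. Mymk-201, with 5 exons and 663 coding bases, took all 960 and 1449 counts. Mymk-202, which begins at another first exon, was listed at 0 counts, and its posterior share was 2.27% in replicate 1 and 0.770% in replicate 2.

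Msc divided its reads among 4 transcripts in nearly the same way in both libraries. Msc-201, which holds the full coding sequence of 603 bases before the stop, had 63.6% and 67.0% of TPM. Msc-204, a 3-exon form, had 12.2% and 13.5%. The single-exon forms Msc-202 and Msc-203, annotated as retained introns, had 12.5% and 11.0%, and 11.7% and 8.52%. Together these 2 non-coding forms held 24.2% in replicate 1 and 19.6% in replicate 2. They are short, so their share of counts was smaller, and Msc-201 held 79.8% of the expected counts in the mean.

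The end of the shared Msc exon and what follows it are shown to set the full form beside the 3-exon form. Lower case is the last 18 coding bases of the first exon, and capitals are the coding bases after it, up to and with the stop codon (GENCODE M21, minus strand).
Msc-201: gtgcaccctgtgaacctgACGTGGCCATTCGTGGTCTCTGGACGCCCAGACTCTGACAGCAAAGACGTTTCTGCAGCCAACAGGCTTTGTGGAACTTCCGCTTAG
Msc-204: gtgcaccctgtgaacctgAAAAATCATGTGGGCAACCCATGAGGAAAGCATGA

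The stretches span chr1:14754239-14755247 for Msc-201 and chr1:14754508-14755247 for Msc-204, introns included. Msc-201 goes on for 87 bases to its stop and Msc-204 for 35 bases, which come from a middle exon that Msc-201 skips. The annotated coding part of Msc-204, 156 bases before the stop, enters the capitals in another reading frame than that of Msc-201. The lines therefore compare annotated bases and do not show alternative ends of the same protein. Msc-204 also begins at position 14755353, inside the first exon of Msc-201. Msc-204 held 12.9% ± 0.891 of Msc TPM (SD, n = 2).

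Met was assigned mainly to Met-203, the 22-exon form with a coding sequence of 4137 bases. It held 76.9% of TPM in replicate 1 and 86.6% in replicate 2, and 95.9% of the expected counts in the mean. Its posterior share was lower, 64.05% in replicate 1 and 72.56% in replicate 2. Met-201 and Met-202, shorter transcripts with a coding sequence of equal length, were listed at 0 in both libraries. The remaining TPM went to short or partial forms with few reads. Met-204 had 0 and 6.89 counts (0% and 9.84%), Met-207 4.05 and 0 (9.14% and 0%), Met-206 2.49 and 0 (8.86% and 0%) and Met-205, a retained-intron form, 13.33 and 10.92 (5.11% and 3.56%). The 3 shortest forms were each seen in a single library, and Met-203 itself differed by 9.72 percentage points between libraries.

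Pax3 was divided between 2 coding forms that differ at the end of the protein. Pax3-202 held 55.3% in replicate 1 and 67.4% in replicate 2 (40.07 and 56.08 counts). Pax3-201 held 38.4% and 21.1% (22.05 and 13.86 counts). Pax3-203, a 5-exon processed transcript with no coding sequence, held 6.34% and 11.5%. The share of Pax3-201 differed by 17.3 points between libraries, the widest shift of any transcript of the 10 genes, and its TPM intervals, 0.0551 to 0.657 and 0.0463 to 0.361, overlapped over most of their length.

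The coding ends of the 2 Pax3 forms are shown because they are the part that tells them apart. Lower case is the last 18 shared bases and capitals run to the stop codon (GENCODE M21, minus strand).
Pax3-201: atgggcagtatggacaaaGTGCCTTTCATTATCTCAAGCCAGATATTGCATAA
Pax3-202: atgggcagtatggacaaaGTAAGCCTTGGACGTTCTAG

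They span chr1:78102801-78103345 for Pax3-201, where an intron follows the shared bases, and chr1:78103308-78103345 for Pax3-202, where the exon simply reads on. Pax3-201 has 35 bases of its own, and Pax3-202 has 20, which begin with the GT of the intron that Pax3-201 removes.

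Pax7 was assigned mainly to Pax7-201. This form held 85.7% of TPM in replicate 1 (78.31 counts) and 100% in replicate 2 (120 counts). Its posterior share was 79.33% in replicate 1 and 92.96% in replicate 2. Pax7-202 had 3.69 counts in replicate 1 and 0 in replicate 2. Its coding sequence of 1515 bases is longer than that of Pax7-201 by 6 bases, which come from the start of an exon (chr4:139828705-139828710, minus strand). Those bases are in capitals in the second of these lines, and the first is the same junction in Pax7-201.
Pax7-201: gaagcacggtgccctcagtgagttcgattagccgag
Pax7-202: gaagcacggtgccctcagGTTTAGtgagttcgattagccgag

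Both lines lie in chr4:139828687-139829514, with an intron between the 2 exons. Pax7-202 is annotated with much shorter untranslated ends (1725 bases in all, against 5854), so its few reads weigh more in TPM than in counts, where they made up 4.5% of the gene in replicate 1.

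Transcription partners and modulators of these factors had a median of 27.4 TPM, against 11.0 TPM for the 10 genes. Of the 22 listed genes 21 reached 1 TPM in both libraries, beside 61.0% of protein-coding genes. Some lay below Myf5, such as Six4 (6.61 TPM) and Bhlhe41 (2.33 TPM). The highest were Id3 (626 TPM ± 21.1, SD, n = 2), Id2 (314 ± 6.86) and Id1 (194 ± 2.55), inhibitors that bind E proteins, and the E protein gene Tcf4 (256 ± 2.14). The lowest was Tcf21 (0.350 ± 0.0424), and these genes are used by many limb cells besides muscle.

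Of the genes listed as signals of migrating and expanding progenitors 15 of 15 reached 1 TPM in both libraries, beside 61.0% of protein-coding genes. Their median was 12.6 TPM, against 4.79 for protein-coding genes. In whole tissue the cells that made these transcripts cannot be told. Cxcl12, the ligand of Cxcr4, stood at 116 TPM ± 1.94, Vcam1 at 106 ± 3.87, Sdc4 at 51.8 ± 1.37 and the Notch target Hey1 at 21.4 ± 1.09 (SD, n = 2). Cxcr4, the receptor that guides some migrating progenitors, was lowest, at 1.8 and 1.61 TPM, close to Lbx1.

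Of 20 genes of fusion and adhesion 17 reached 1 TPM in both libraries, beside 61.0% of protein-coding genes, with a median of 13.7 TPM. The general cell-shape and adhesion genes led, namely Cdc42 (626 TPM ± 7.23), Rac1 (270 ± 6.96), Itgb1 (196 ± 8.51) and Jam3 (117 ± 1.36, SD, n = 2). Nphs1, which encodes nephrin, had 2 counts in replicate 1 and 1 in replicate 2.

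Genes listed as early differentiation genes downstream of the bHLH factors had the highest median of the 4 lists, 44.9 TPM. Of these 24 of 25 stood at 1 TPM or more in both libraries, beside 61.0% of protein-coding genes. Cdkn1c, a cell-cycle inhibitor, reached 766 TPM ± 0.530, the actins Actc1 689 ± 4.07 and Acta1 335 ± 8.25, and the myosin light chain Myl1 323 ± 5.04 (SD, n = 2). The list holds the cell-cycle genes Cdkn1c, Cdkn1a and Rb1, and whole limb does not tell how much of their level came from muscle cells. Lmod2, a late sarcomere gene, was lowest, at 0.590 and 0.870 TPM.

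**Figure D4:**
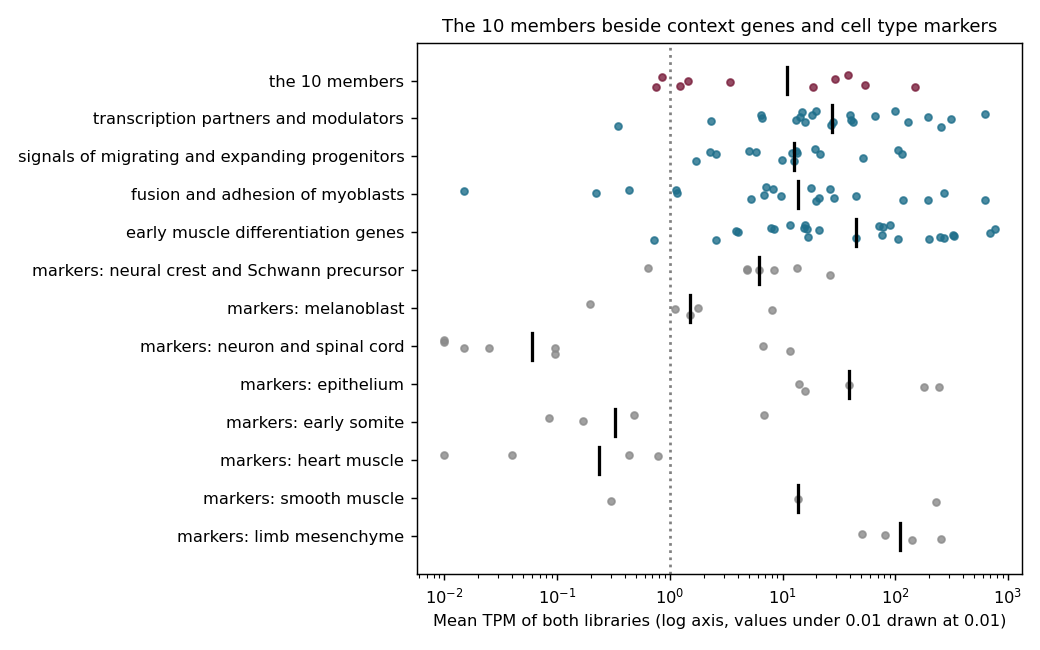
Mean TPM of both libraries on a log axis for the 10 genes, the 4 lists of related genes and 8 lists of cell type markers, with 1 point per gene and a black bar at each list's median. The dotted line is 1 TPM. The 10 genes spread from 0.755 to 150 TPM, and the markers of heart muscle all lie below 1 TPM.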

How the data were processed

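Limb RNA was measured in 2 libraries of 1 group. The authors deposited, for each library, a gene table and a transcript table on mm10 with GENCODE M4 annotation, per the labels and the text deposited beside them. Aligner, quantifier and strand use were not given in the sources used. The deposited expected counts are estimates that divide shared reads among transcripts. The deposited TPM and FPKM divide them by effective length, which was length minus 99 nt. The deposited IsoPct is a percent of the gene's TPM. The deposited bounds of credibility intervals, a score per gene, have no stated level and centre on the posterior mean, which can differ from TPM.

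Ensembl identifiers were matched to symbols (98.0% of 43346). Spike-ins (2.11% and 2.07% of counts) and number-only rows (0.000226% and 0.000148%) were left out. Rounded counts were scaled by TMM in edgeR 4.0.16 (R 4.3.3) over 17406 genes with 10 or more counts in both, and DESeq2 1.42.0 gave alternative size factors. Ratios used 0.1 TPM or 0.5 counts added. Intervals and spreads cover these libraries only. Python 3.11.15, numpy 2.4.6 and pandas 2.3.3 did the rest. Sequences came from GENCODE M21, whose transcript lengths matched the tables except for Myod1 (1854 against 1861 nt) and Myf6 (1248 against 1263 nt), and from RefSeq promoters. The library rule was tested on simulated data of 17554 genes, where it called 94 of 100 genes set 2-fold apart, 100 of 100 set 4-fold apart and 1.99% of unchanged genes. The changed genes were drawn from those with 100 or more expected counts at the depth of replicate 1, with a fixed coefficient of variation of 0.1. The rates therefore do not cover Myf6, Lbx1 or Pax3, or a difference of 1.16-fold. In the real libraries the rule called 4.3% of genes.

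The genes, lists and pairs were chosen with earlier results of these data known. All 10 genes are named, with the 4 highest and the lowest of each list of related genes, and transcripts with 5% or more in either library. Hgf, Mymx, the cell type markers and the genes named in the closing section were chosen after their values were seen. Likeness of pattern across samples was not computed, since 2 libraries of 1 group give no pattern, and proteins are not shown. Some planned items are not reported here.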

Additional observations from a re-analysis of the deposited data

How the results depend on the processing

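The number of genes at 1 TPM, of neighbours that lay apart and of genes differing between libraries stayed within 1.5 times the main count under each alternative run. All 60 alternative ratios between libraries kept their side of the limit and 58 kept their direction. The exception was Pax7 (main log2 0.12), at -0.0169 in TPM and -0.0161 in posterior mean TPM. The deposited length of Pax7 was 5263.88 nt in replicate 1 and 5854 nt in replicate 2. The cause of the change in direction was not tested. The number of genes whose leading transcript held 90% or more in both libraries was 1, and it was 2 at 80%, 3 on shares of expected counts, and 1 to 2 when either replicate was left out, the higher value without replicate 1. Of 144 alternative pair ratios 142 kept their side of the limit, and the exceptions were Msc over Myf5 on expected counts (log2 0.10) and Lbx1 over Pax7 with 0.01 TPM added (log2 0.70, past the limit). Among pairs within the limit, 5 alternative ratios changed sign. On expected counts, which keep the effect of gene length, the log2 ratio was -0.84 for Myf6 over Lbx1, -0.0242 for Lbx1 over Pax3, -0.46 for Pax3 over Pax7 and -0.49 for Lbx1 over Pax7. Myf6 over Lbx1 also ranged from -0.11 to 0.49 when either replicate was left out, the lower value without replicate 2. Rescaling TPM over protein-coding genes raised every level. Depth limits Myf6, Lbx1, Pax3 and Pax7, which rest on 28 to 120 counts. No paired analysis was possible because the labels give a single group.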

Other observations

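Among genes of the 4 related lists, some differed between the libraries past 2 SD of genes of like count, and examples are given as values. Myh3, the embryonic myosin heavy chain, was higher in replicate 2 by 0.24 on the log2 scale (limit 0.16), Smyd1, a muscle methyltransferase, by 0.42 (limit 0.33) and Klhl41, a sarcomere-associated protein, by 0.30 (limit 0.25). Eya1, a transcriptional cofactor, had a log2 ratio of -0.32 (limit 0.27). Of the 25 early differentiation genes 3 were higher in replicate 2 past the limit and 0 lower, and 15 lay higher at all. Of the 17406 genes with 10 or more counts in both, 8682 lay higher in replicate 2, and 437 were higher past the limit and 312 lower.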
